A study of Rattus norvegicus with 23 samples.

Results

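Arntl, Clock and Npas2, the activators of the circadian clock, were followed in the hearts of rats after kidney transplantation. The 3 genes were taken by their Ensembl rat identifiers (Arntl ENSRNOG00000014448, Clock ENSRNOG00000002175 and Npas2 ENSRNOG00000013408) from count tables of 26405 genes, and all 3 passed the filter on low counts that left 11568 genes. RNA-seq of the heart apex was available for 23 inbred Lewis rats, with 1 library per rat, in a design that crossed chronic kidney disease (CKD) of the kidney donor with CKD of the recipient. CKD was brought about by removing part of both kidneys while the drinking water held L-NNA at 200 mg/L, which blocks nitric oxide synthesis, and the chow held 6% NaCl; water and chow were changed back before transplantation. In the group names the donor (D) stands before the recipient (R), each with CKD (C) or healthy (H). CKD recipients carried a kidney of a CKD donor in CD-CR (6 rats) or of a healthy donor in HD-CR (5 rats). Healthy recipients carried a kidney of a CKD donor in CD-HR (6 rats) or of a healthy donor in HD-HR (6 rats). Every rat, HD-HR included, received a transplanted left kidney, had the right native kidney taken out after a further 10 to 14 days and was killed 6 weeks after transplantation. The surgery, L-NNA and NaCl belong to CKD throughout, and their own effects cannot be told apart from it. The sources used here do not give the hour at which each heart was taken.

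ARNTL, also called BMAL1, is a basic helix-loop-helix PAS transcription factor that binds DNA as a dimer with CLOCK or with NPAS2, a close paralog of CLOCK that can stand in for it. These dimers act on E-boxes of the Per, Cry, Nr1d1 and Dbp genes. PER and CRY proteins then inhibit the dimers, while REV-ERB proteins (Nr1d1 and Nr1d2) repress and ROR proteins activate Arntl through ROR response elements in its promoter. In the rodent heart Arntl and Npas2 transcripts cycle strongly over the day and Clock transcripts cycle less, so a level in 1 heart depends on the hour of collection.

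A promoter window of Arntl is shown because that loop acts on Arntl through ROR response elements in its promoter. Whether the matches in this window are such sites was not tested. The window is the 250 bases before the RefSeq start of Bmal1 (assembly GRCr8, chr1:176766078-176766327, plus strand), of which 106 bases lie within the RefSeq gene span, so that it is upstream of this start but not of the whole gene. The counts were made on another build, Rnor_5.0. Capitals mark matches to a relaxed form of the ROR response element, in which any base may stand before the final A; this form was chosen after the window had been read.
Arntl promoter: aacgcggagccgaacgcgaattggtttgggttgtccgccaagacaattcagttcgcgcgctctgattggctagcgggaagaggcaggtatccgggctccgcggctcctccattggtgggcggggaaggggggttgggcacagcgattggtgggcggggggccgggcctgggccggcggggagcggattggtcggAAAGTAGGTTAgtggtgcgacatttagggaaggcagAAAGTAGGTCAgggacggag
The window held 2 such matches on the plus strand, at -56 to -46 and -20 to -10 from the start. The relaxed form was found, on either strand, in 409 of 33469 windows of the same length (1.22%). The match nearer the start also met the strict ROR response element, which 0.317% of the windows held, so these searches overlap. The E-box CACGTG (5.59% of windows) and the D-box TTATGNAA (3.28% of windows), searched on both strands, had no match in the Arntl window. None of the 4 searches had a match in the single RefSeq window of Npas2 or in the 2 windows of Clock. All 250 bases of the Npas2 window and of the second Clock window, and 3 bases of the first Clock window, lie within the RefSeq gene span, so only the first Clock window is almost wholly upstream of its gene. A match is a description of the letters, not a measured site.

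Library depth was similar between the groups. Total counts in genes ran from 7801127 to 12444980 in CD-CR, from 9212531 to 11373022 in HD-CR, from 7391929 to 12169291 in CD-HR and from 7605675 to 11484365 in HD-HR. The 3 genes had low counts, between 7 and 363 per library. Levels are given as CPM, the counts of a gene relative to its library's total, scaled by TMM, a method that adjusts for differences in RNA composition. They are not corrected for gene length, so levels were compared between libraries and not between genes. At the lowest count, 7 counts of Npas2 in CD-CR5 equalled 0.840 CPM, with a 95% exact (Clopper-Pearson) interval of 0.338 to 1.73 CPM that covers counting error alone. CD-CR1 stood apart from the other libraries, with a median correlation of 0.924 to them. The names of the animals begin with 12 or 13: the CKD recipients include 9 of prefix 12 and 2 of prefix 13 (CD-CR5 and HD-CR5), and all 12 healthy recipients have prefix 13. No source used here says what the prefix stands for. Non-unique alignments per counted read had a median of 1.20 in CKD recipients and 2.31 in healthy recipients. The highest value was 10.7 in CD-HR5, which also had the lowest total counts and the largest share of reads in no feature. The heart's own marker genes were not checked, because the files carry identifiers without names.

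Arntl, the partner common to both kinds of dimer, was the most variable of the 3 genes. In CD-CR it stood at 1.86, 2.04, 4.47, 4.96, 6.06 and 7.76 CPM in rising order. The HD-CR hearts had 1.07, 1.74, 1.90, 2.49 and 2.59 CPM. The CD-HR hearts had 2.31, 4.29, 5.33, 10.1, 16.2 and 26.6 CPM, and the HD-HR hearts had 1.31, 1.35, 1.43, 2.54, 3.91 and 11.3 CPM. Hearts with a CKD donor kidney thus held most of the high values, but every pair of groups overlapped. The lowest libraries of HD-HR and HD-CR lay together near 1 CPM. The group means were 4.53 ± 2.29 CPM in CD-CR, 1.96 ± 0.616 in HD-CR, 10.8 ± 9.22 in CD-HR and 3.65 ± 3.90 in HD-HR (SD, n = 6, 5, 6 and 6). In the order of these means HD-CR was lowest, followed by HD-HR, CD-CR and CD-HR, and each step between neighbours was smaller than the SD of at least 1 of the 2 groups. CD-HR4, with 26.6 CPM, was the highest library for Arntl, Clock and Npas2 alike, and it was also the highest library for 7.69% of all genes tested.

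Clock, the usual partner of ARNTL, moved within a narrower range. In CD-CR it stood at 2.28, 3.71, 3.72, 3.95, 4.93 and 5.27 CPM. The HD-CR hearts had 1.28, 2.69, 3.11, 3.21 and 4.34 CPM. The CD-HR hearts had 2.04, 4.38, 5.42, 5.88, 7.94 and 10.5 CPM, and the HD-HR hearts had 3.06, 3.81, 3.98, 4.70, 6.31 and 6.78 CPM. The 6 highest libraries were all of healthy recipients, and 10 of 11 CKD recipients lay below the median of the healthy recipients. The share of all genes tested with such a pattern was not counted. Mean levels were 3.98 ± 1.06 CPM in CD-CR, 2.93 ± 1.11 in HD-CR, 6.03 ± 2.92 in CD-HR and 4.77 ± 1.48 in HD-HR (SD, n = 6, 5, 6 and 6), and all pairs of groups overlapped. HD-CR was lowest, followed by CD-CR, HD-HR and CD-HR, and each step between neighbours was again smaller than the SD of at least 1 of the 2 groups.

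Npas2, the paralog of Clock, separated the kinds of recipient most clearly of the 3 genes. In CD-CR it stood at 0.840, 1.26, 1.33, 1.49, 1.53 and 2.19 CPM. The HD-CR hearts had 1.32, 1.42, 1.45, 1.51 and 2.03 CPM. The CD-HR hearts had 1.62, 1.64, 4.41, 5.63, 6.11 and 11.5 CPM, and the HD-HR hearts had 2.03, 2.03, 2.04, 2.08, 3.27 and 6.09 CPM. Of the 11 CKD recipients 9 lay below all 12 healthy recipients. The other 2, CD-CR4 and HD-CR3, lay below the median of the healthy recipients, 3.49 CPM. How many of all genes tested show this pattern was not counted. HD-CR and HD-HR did not overlap, a pattern with HD-CR lower that 1.77% of all genes tested showed, although the gap between 2.032 and 2.034 CPM was far within counting error. The groups averaged 1.44 ± 0.443 CPM in CD-CR, 1.55 ± 0.280 in HD-CR, 5.15 ± 3.66 in CD-HR and 3.20 ± 1.59 in HD-HR (SD, n = 6, 5, 6 and 6). CD-CR and HD-CR were the 2 lowest of these means and differed by less than the SD of either group. CD-HR and HD-HR, the 2 highest, differed by less than the SD of CD-HR but by more than that of HD-HR.

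Differences were tested with edgeR's quasi-likelihood test in 1 fit of all 23 libraries, with Benjamini-Hochberg adjustment across the 11568 genes. An adjusted p under 0.05 was called. CKD recipients were set against healthy ones first, as the average over CKD and healthy donor kidneys. Of the 3 activators 1 was called, in the lower direction, where 12.8% of all genes tested were called and 6.73% were called lower. Npas2 averaged 1.49 ± 0.364 CPM in CKD recipients (SD, n = 11) and 4.18 ± 2.88 CPM in healthy recipients (n = 12). Its log2 fold change was -1.45 ± 0.29 (SE), to 0.367 of the level in healthy recipients (adjusted p = 0.00289 by edgeR). Clock averaged 3.50 ± 1.16 CPM in CKD recipients and 5.40 ± 2.30 CPM in healthy recipients. Its log2 fold change of -0.64 ± 0.22 missed the threshold narrowly (adjusted p = 0.0504 by edgeR). It passed by DESeq2 (adjusted p = 0.0287), or by edgeR without CD-HR2, CD-HR3, HD-CR3 or HD-HR1, and over all alternatives its adjusted p ran from 0.0137 to 0.202. Arntl averaged 3.36 ± 2.14 CPM in CKD recipients and 7.23 ± 7.71 CPM in healthy recipients. Its log2 fold change was -1.09 ± 0.44, which was not called (adjusted p = 0.105 by edgeR), and its 95% interval reached from -2.01 to -0.17.

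The recipient difference of Npas2 ran nearly parallel to the prefix of the animal names. In a fit with a term for the prefix its log2 fold change was -1.80 (adjusted p = 0.135 by edgeR). Only 6 genes were called in that fit, against 1483 without the term, so the lost call is not particular to Npas2. Among libraries of prefix 13 alone, with 1 library each of CD-CR and HD-CR, its log2 fold change was -1.82 and was not called. The 2 CKD recipients of prefix 13, CD-CR5 at 0.840 CPM and HD-CR5 at 1.51 CPM, both lay below all 12 healthy recipients, of which the lowest had 1.62 CPM. Over all genes tested 4% showed that pattern. Clock had 2.28 CPM in CD-CR5 and 1.28 CPM in HD-CR5, against 2.04 CPM in the lowest healthy recipient. Arntl had 2.04 CPM in CD-CR5 and 1.74 CPM in HD-CR5, and 3 of 12 healthy recipients lay below each of them. In a fit with a term for non-unique alignments per counted read Npas2 was still called (log2 fold change -1.31, adjusted p = 0.0212 by edgeR). In whole heart tissue, fewer cells of a type that expresses a gene and less RNA per cell cannot be told apart.

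Split by the donor kidney, the recipient comparison of Npas2 was called with a CKD kidney and not with a healthy one. CD-CR hearts averaged 1.44 ± 0.443 CPM and CD-HR hearts 5.15 ± 3.66 CPM (SD, n = 6 each), a log2 fold change of -1.84 ± 0.39 (SE, adjusted p = 0.0196 by edgeR), where 1.56% of all genes were called and 0.475% were called lower. All 6 CD-CR libraries lay below the median of CD-HR. The call did not hold without CD-HR4 (log2 fold change -1.39, adjusted p = 0.0661 by edgeR) or by limma-voom (-1.57). It was also lost in a fit of these groups alone (-1.83) or with a term for non-unique alignments (-1.67). With a term for the prefix (-2.20) it was lost as well, but there 0 genes of all tested were called. Within prefix 13, with 1 CD-CR library, the value was -2.61 and was not called. With a healthy kidney the log2 fold change of Npas2 in HD-CR over HD-HR was -1.05 ± 0.42 (adjusted p = 0.186 by edgeR), where 0.614% of all genes were called. The difference between these responses, tested as the donor by recipient interaction, was -0.79 ± 0.57 on the log2 scale and was not called (adjusted p = 1 by edgeR), with a 95% interval of -1.97 to 0.39, where 0.00864% of all genes were called. Without CD-HR4 the interaction was -0.34. The comparisons CD-CR over CD-HR and HD-CR over HD-HR share no library, but both come from 1 fit with a common estimate of the spread.

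Arntl and Clock were not called in either of these comparisons. The log2 fold change of Arntl was -1.26 ± 0.57 (SE) in CD-CR over CD-HR (adjusted p = 0.252 by edgeR) and -0.93 ± 0.68 in HD-CR over HD-HR (adjusted p = 0.485). Without HD-HR2 the value of Arntl in HD-CR over HD-HR was -0.11, and without CD-HR4 its value in CD-CR over CD-HR was -0.72. For Clock it was -0.60 ± 0.29 in CD-CR over CD-HR (adjusted p = 0.286 by edgeR) and -0.69 ± 0.32 in HD-CR over HD-HR (adjusted p = 0.249). The interaction was -0.32 ± 0.89 for Arntl and 0.09 ± 0.43 for Clock, neither of which was called. With CKD in both donor and recipient against neither (CD-CR over HD-HR), the 3 genes were not called, where 3.65% of all genes were. Npas2 had a log2 fold change of -1.15 ± 0.40 (adjusted p = 0.109 by edgeR), Clock of -0.26 ± 0.30 (adjusted p = 0.681) and Arntl of 0.29 ± 0.59 (adjusted p = 0.84). The value of Arntl was 1.11 without HD-HR2 and 0.078 without CD-CR6, and that of Clock was -0.11 without HD-HR2.

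**Figure D1:**
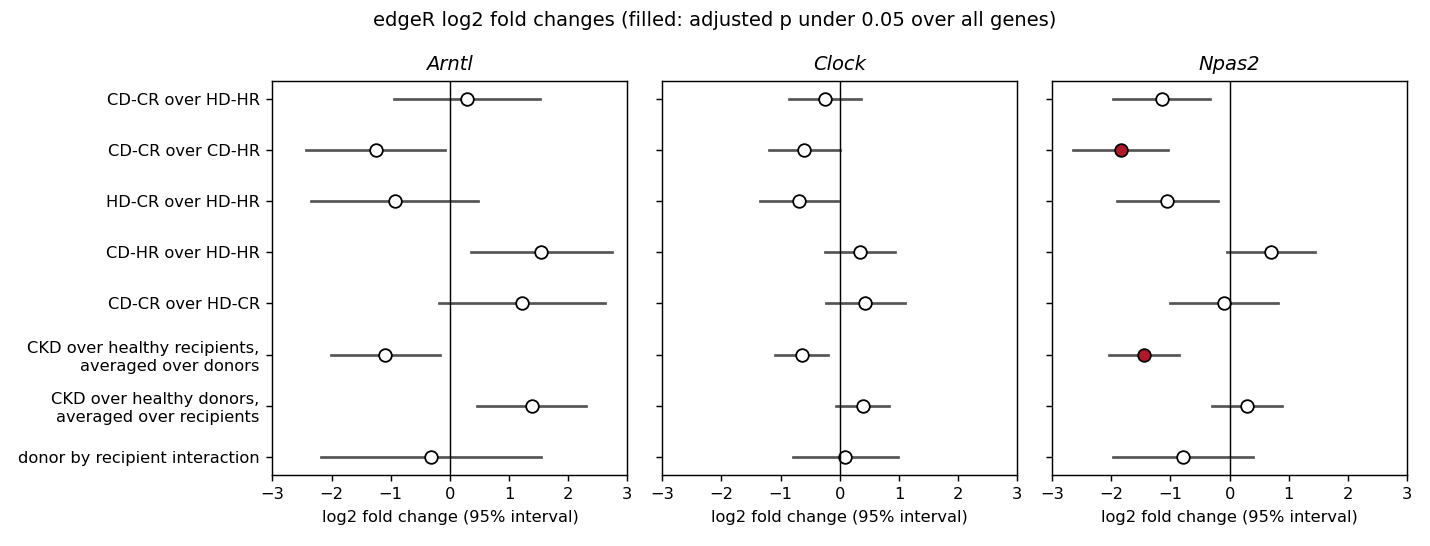
Log2 fold changes by edgeR (points) with 95% intervals (lines) for Arntl, Clock and Npas2 in the 8 comparisons, the first-named group over the other. Filled points passed an adjusted p of 0.05 over all genes. Npas2 passed in CD-CR over CD-HR (-1.84) and in the averaged recipient comparison (-1.45), and Arntl and Clock had no filled point.

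The disease of the donor kidney was the second axis of the design, and here Arntl had the largest fold change of the 3. Averaged over recipients, Arntl had 7.67 ± 7.19 CPM with CKD kidneys (SD, n = 12) and 2.88 ± 2.92 CPM with healthy kidneys (n = 11). Its log2 fold change was 1.38 ± 0.44 (SE), 2.61-fold, with a 95% interval of 0.46 to 2.30. It was not called (adjusted p = 0.159 by edgeR, unadjusted p = 0.0052), as 0 of 11568 genes were in this comparison by edgeR (0% of all genes tested). By edgeR 12.8% of all genes had an unadjusted p under 0.05 there, and DESeq2 called 226 genes, with an adjusted p of 0.0563 for Arntl. In healthy recipients, CD-HR over HD-HR, the log2 fold change was 1.55 ± 0.57 (adjusted p = 0.521 by edgeR), where 0% of all genes were called, 7.6% had an unadjusted p under 0.05 and DESeq2 called 7 genes. Without HD-HR2 the value was 2.35 and without CD-HR4 it was 1.01. In CKD recipients, CD-CR over HD-CR, it was 1.22 ± 0.67 (adjusted p = 0.647 by edgeR), where 0.0259% of all genes were called, and 4 of 6 CD-CR libraries lay above all 5 HD-CR libraries.

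Clock and Npas2 had smaller fold changes between the kinds of donor. The averaged log2 fold change was 0.39 ± 0.22 (SE) for Clock (adjusted p = 0.472 by edgeR) and 0.30 ± 0.29 for Npas2 (adjusted p = 0.711). For Npas2 it was 0.69 ± 0.36 in CD-HR over HD-HR and -0.10 ± 0.44 in CD-CR over HD-CR. For Clock it was 0.34 ± 0.29 in CD-HR over HD-HR and 0.43 ± 0.32 in CD-CR over HD-CR. Without CD-HR4 the values in CD-HR over HD-HR were 0.25 for Npas2 and 0.084 for Clock. None of these was called, and the 95% intervals of the averaged values reached up to 0.83 for Clock and 0.89 for Npas2.

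Ratios of 2 activators within a library need no scaling between libraries, so the balance of the partners was compared in this way. Since counts depend on gene length, the size of a ratio was not read, only its difference between groups. The log2 ratio of Npas2 to Clock averaged -1.44 ± 0.39 in CD-CR, -0.82 ± 0.60 in HD-CR, -0.39 ± 0.79 in CD-HR and -0.64 ± 0.46 in HD-HR (SD, n = 6, 5, 6 and 6). It differed by -1.05 between CD-CR and CD-HR (exact permutation p = 0.0238, two-sided) and by -0.80 between CD-CR and HD-HR (exact permutation p = 0.013). Between CKD and healthy recipients it differed by -0.64 (permutation p = 0.0195). Adjusted over the 18 tests of ratios, each of these p-values was 0.0857 and did not pass. Within prefix 13, which leaves 1 library each of CD-CR and HD-CR, the difference between CKD and healthy recipients was -0.062 (adjusted permutation p = 0.934). The ratio of Arntl to Npas2 averaged 1.49 ± 0.95 in CD-CR, 0.28 ± 0.43 in HD-CR, 0.93 ± 0.47 in CD-HR and -0.18 ± 0.76 in HD-HR. Between CKD and healthy donor kidneys it differed by 1.21 in CKD recipients (exact permutation p = 0.0325, adjusted 0.0974) and by 1.11 in healthy recipients (exact permutation p = 0.0173, adjusted 0.0857). These donor comparisons share no library, and neither passed after adjustment. Between CD-CR and HD-HR the ratio of Arntl to Npas2 differed by 1.67 (exact permutation p = 0.0108, adjusted 0.0857). Arntl over Clock differed between groups by -0.49 to 1.36, with adjusted permutation p-values of 0.151 to 0.862. Of the 18 ratio tests 0 passed after adjustment, and 6 had an unadjusted permutation p under 0.05. Leaving out 1 library at a time gave 9 passes over 7 of these tests, with adjusted permutation p-values of 0.0358 to 0.0447, all of them without CD-CR4 or CD-HR6. Without CD-CR4, Npas2 over Clock passed in CD-CR over HD-HR (-0.92), CD-CR over CD-HR (-1.17), CD-CR over HD-CR (-0.74) and CKD over healthy recipients (-0.68). Arntl over Npas2 passed without that library in CD-CR over HD-HR (2.02), CD-CR over CD-HR (0.905) and CD-CR over HD-CR (1.55). Without CD-HR6, Npas2 over Clock passed in CD-CR over CD-HR (-1.34) and in CKD over healthy recipients (-0.76).

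**Figure D2:**
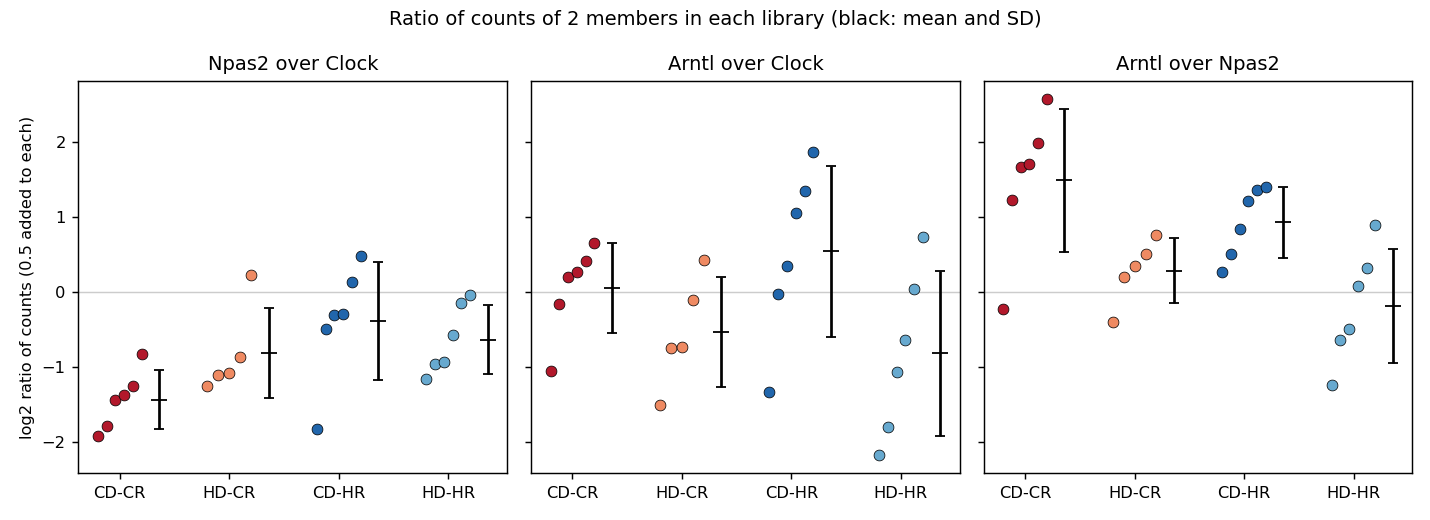
Log2 ratio of the counts of 2 activators in each library (0.5 added to each count), by group, with points for single hearts and black bars for mean and SD. Npas2 over Clock is lowest in CD-CR, with a mean of -1.44, and Arntl over Npas2 has means of 1.49 in CD-CR, 0.28 in HD-CR, 0.93 in CD-HR and -0.18 in HD-HR; 0 of 18 tests passed after adjustment.

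The spread between hearts of 1 group was wide for these genes. The biological coefficient of variation, edgeR's estimate of the relative spread between replicates beyond counting error, was 0.670 for Arntl, 0.426 for Npas2 and 0.331 for Clock, against a median of 0.184 over all genes tested. Arntl was more variable than 99.1% of the 3874 genes within 2-fold of its level, Npas2 than 94.4% of 3196 such genes and Clock than 90.8% of 3670. Within groups, the SD of log2 CPM of Npas2 was 0.39 in CD-CR, 0.21 in HD-CR, 1.06 in CD-HR and 0.60 in HD-HR. For Arntl it was 0.80 in CD-CR, 0.46 in HD-CR, 1.27 in CD-HR and 1.15 in HD-HR. For Clock it was 0.40 in CD-CR, 0.60 in HD-CR, 0.77 in CD-HR and 0.43 in HD-HR. Healthy recipients thus had the larger spread for Npas2 and Arntl, whereas for Clock CD-HR exceeded CD-CR and HD-HR lay below HD-CR; differences in spread were not tested.

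Deviations of single hearts from their group mean were shared between the activators when all libraries were pooled. The permutations behind the p-values, here and within each kind of recipient, moved hearts freely across groups. As the groups differed in spread, these p-values are only approximate. Over the 23 libraries, deviations of Arntl and Npas2 in log2 CPM had a Pearson r of 0.745 (permutation p = 6e-05, 0.00018 adjusted over the 3 pairs) and a Spearman rho of 0.579 (permutation p = 0.00398, adjusted 0.0119). Without HD-HR2 and CD-HR4, the hearts farthest from the median of Arntl, r was 0.590 (permutation p = 0.00442). Clock and Npas2 had r = 0.613 (permutation p = 0.00193, adjusted 0.00289) and rho = 0.488 (permutation p = 0.0188, adjusted 0.0282), and r = 0.564 without CD-HR3 and HD-CR5. Arntl and Clock had r = 0.448 (permutation p = 0.0311, adjusted 0.0311) and rho = 0.358 (permutation p = 0.094). Their relation rested on HD-HR2 and CD-HR4, without which r was 0.250 (permutation p = 0.273). Among the 5 highest libraries of each gene, CD-HR4, CD-HR5 and HD-HR2 were common to all 3. Of these, CD-HR5 had the most non-unique alignments per counted read of all libraries (10.7).

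Within healthy recipients (n = 12) the deviations of Arntl and Npas2 had r = 0.881 (permutation p = 0.00016, adjusted 0.00048) and rho = 0.825 (permutation p = 0.00185). All healthy recipients share prefix 13. Within CKD recipients (n = 11) r was 0.058 (permutation p = 0.869) and rho 0.082 (permutation p = 0.818). Npas2 ranged over 7 to 22 counts in the CKD recipients, with exact counting intervals as drawn in the plot of levels; the difference between the correlations was not tested. For Clock and Npas2, r was 0.437 in CKD recipients (permutation p = 0.179) and 0.699 in healthy recipients (permutation p = 0.0115). The relation in healthy recipients fell to 0.364 without CD-HR3 and CD-HR4 (permutation p = 0.302), so it rested on these hearts.

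**Figure D3:**
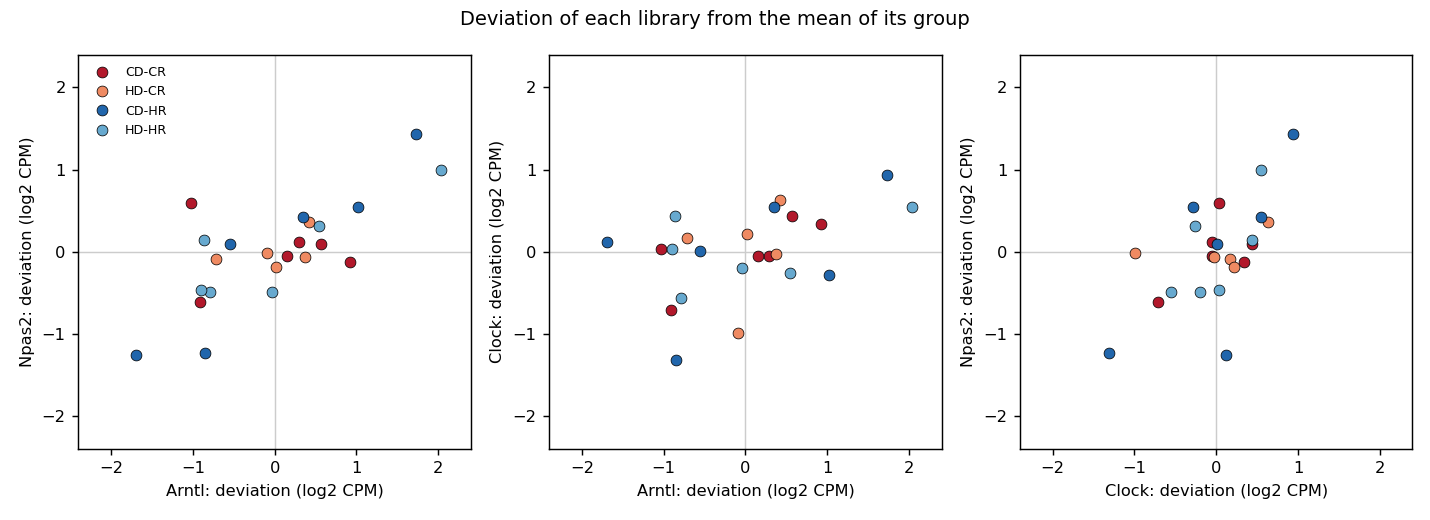
Deviation of each library from the mean of its group in log2 CPM, for the pairs Arntl and Npas2, Arntl and Clock, and Clock and Npas2, with 1 point per heart coloured by group. Pooled over all libraries, the points of Arntl and Npas2 rise together (r = 0.745). Within healthy recipients r was 0.881, and within CKD recipients it was 0.058.

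Likeness was then ranked over 11031 genes whose average reached 1 CPM. Npas2 ranked 5 by its correlation with Arntl over the 23 deviations, and Clock ranked 367. Arntl ranked 11 in the likeness to Npas2, and Clock ranked 97. In the likeness to Clock the ranks were lower, with Npas2 at 762 and Arntl at 1776. The genes most like Arntl by this measure are given by identifier, since no names were paired with them. ENSRNOG00000005450 was highest, with r = 0.844 (rho = 0.801, and r = 0.788 without the 2 farthest libraries), followed by ENSRNOG00000019475 with r = 0.802. At the opposite end were ENSRNOG00000003228, with r = -0.90 (rho = -0.91, and r = -0.84 without the 2 farthest libraries), and ENSRNOG00000020254, with r = -0.86. ENSRNOG00000003228 averaged 32.1 ± 8.93 CPM in CD-CR, 33.4 ± 4.64 in HD-CR, 26.9 ± 11.6 in CD-HR and 40.4 ± 14.7 in HD-HR (SD, n = 6, 5, 6 and 6). These genes were picked as the extremes of all genes, so their correlations are descriptions with no test. The names of the repressors and output genes of the clock could not be matched to identifiers, and their levels are not analysed here.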

How the data were processed

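The authors deposited 1 table of whole-number read counts per gene for each of the 23 libraries, with no normalization. The tools named in the submitters' processing notes are STAR (2.4.2a), Picard, and HTSeq (0.6.1p1), and the build is Rnor_5.0. The sources used here do not give the annotation release, the strand setting or any removal of duplicates. Per the labels' protocols polyadenylated RNA was selected and libraries were directional. Ambiguous reads came to 0.872 to 1.97% and reads in no feature to 10.6 to 21.5% of the reads counted, ambiguous or in no feature, and these lines were left out of totals and tests.

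Groups came from sample titles. The members and gene lists were chosen with earlier results of these data known. The pairing of the 3 identifiers with Arntl, Clock and Npas2 was taken as given, since the RefSeq tables (GRCr8) held 0 Ensembl rat identifiers. For that reason the lists of other clock genes and of tissue markers could not be used, and 0 of them were tested. Named genes were the 3 members and the 2 genes most and the 2 least like Arntl. In RefSeq naming Arntl is Bmal1, and promoter windows for all 3 genes were found under their symbols.

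Counts were filtered with filterByExpr on the 4 groups, scaled by TMM, and fitted in R (4.3.3) by edgeR (4.0.16; glmQLFit, robust). SE is the log2 fold change divided by the square root of F. Alternatives used DESeq2 1.42.0, limma 3.58.1, other scalings, no filter, other sets of libraries, and terms for the animal name prefix, non-unique alignments or replicate number. The edgeR code of the 8 comparisons was tested on simulated counts. Log2 CPM used a prior count of 2, ratios 0.5 per count, and permutation tests were two-sided, exact or with 100000 resamples. No pair of libraries within a group agreed within sampling noise (lowest chi-square per degree of freedom 8.38). Nothing in the labels says that equal replicate numbers mark paired rats. Intervals from counts cover counting error only, as PCR copies are not independent molecules.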

Additional observations from a re-analysis of the deposited data

Results flagged for a closer look

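Of 12 combinations of gene and group, 2 held a library far from the rest of its group by Dixon's criterion at the 95% level, applied to CPM without logs. Chance alone gives this in about 1 of 20 groups if the values are normally distributed, which CPM from low counts need not be. Both flags hold for this scale only, as log2 CPM was not examined in this way. Arntl stood at 11.3 CPM in HD-HR2, against 1.31 to 3.91 CPM in the other HD-HR hearts. Npas2 stood at 2.03 CPM in HD-CR3, against 1.32 to 1.51 CPM in the other HD-CR hearts. The 95% exact interval of that library, from counting error alone, was 1.27 to 3.08 CPM. CD-HR4, the highest heart for all 3 genes, did not meet the criterion in any of them.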

How the results depend on the processing

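The lower Npas2 of CKD recipients kept its direction under every alternative run and passed without each library in turn (log2 fold change -1.54 to -1.22). It did not pass with the prefix as a covariate (-1.80), where only 6 genes were called. Within prefix 13, with 1 library each of CD-CR and HD-CR, it was -1.82 and did not pass either. The value of Npas2 in CD-CR over CD-HR did not pass by limma-voom (-1.57), in these groups alone (-1.83) or with non-unique alignments (-1.67) as a covariate. Nor did it pass with the prefix as a covariate (-2.20), where 0 genes were called. It was -2.61 within prefix 13 and ran from -2.03 to -1.39 when 1 library was left out. Clock in CKD over healthy recipients passed by DESeq2 (-0.64), with a range of -0.73 to -0.51 without 1 library. Leaving out CD-HR4 and HD-HR2 together, an alternative chosen after the data were seen, gave -1.07 (adjusted p = 0.00923 by edgeR) for Npas2 and -0.41 for Arntl in that comparison, with 554 genes called. The cause of these changes was not tested.

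Values near 0 reversed. Arntl in CD-CR over HD-HR was -0.42 with the prefix and -0.85 within prefix 13, and Npas2 in the averaged donor comparison was -0.081 within prefix 13. Without CD-CR1, which stands apart, the interaction of Clock was -0.025. Without 1 library in turn, the interaction ran from -0.092 to 0.35 for Clock, from -1.14 to 0.21 for Arntl and from -1.09 to -0.34 for Npas2, and Npas2 in CD-CR over HD-CR from -0.24 to 0.024. Other values that moved by over 1.5 times without CD-HR4 were those of Clock in CD-CR over CD-HR (-0.34) and Npas2 in the averaged donor comparison (0.074); without HD-HR2, Arntl in CKD over healthy recipients (-0.67) and Npas2 in the averaged donor comparison (0.45); and without HD-CR5, Clock in CD-CR over HD-CR (0.26). Within prefix 13 the log2 ratio of Npas2 to Clock was 0.87 in HD-CR over HD-HR and -0.062 in CKD over healthy recipients, and that of Arntl to Clock in CKD over healthy recipients 0.28. Without 1 library, Npas2 over Clock ran from -0.92 to -0.68 in CD-CR over HD-HR, from -1.34 to -0.88 in CD-CR over CD-HR, from -0.74 to -0.36 in CD-CR over HD-CR and from -0.78 to -0.55 for CKD over healthy recipients. Arntl over Clock ran from -0.26 to 0.11 for CKD over healthy recipients. Arntl over Npas2 ran from 1.46 to 2.02 in CD-CR over HD-HR, from 0.34 to 0.905 in CD-CR over CD-HR and from 0.99 to 1.55 in CD-CR over HD-CR. The correlation of Arntl and Clock deviations ran from 0.327 to 0.522.

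Same-numbered libraries of different groups had correlations of deviations from -0.32 to 0.36, 12 of 33 over 0.1, and the own number correlated best in 16 of 66 cases, so they were not treated as pairs. With a replicate block Npas2 was -1.42 in CKD over healthy recipients (adjusted p = 0.00169 by edgeR) and -1.71 in CD-CR over CD-HR (adjusted p = 0.0183), and 187 genes were called in CD-CR over CD-HR against 181 without the block; no call of a member changed. Over all settings, the genes called ran from 0 to 1815 for CKD over healthy recipients (1483 in the report), 0 to 449 for CD-CR over CD-HR (181), 3 to 306 for HD-CR over HD-HR (71), 0 to 651 for CD-CR over HD-HR (422), 0 to 36 for CD-CR over HD-CR (3), 0 to 7 for CD-HR over HD-HR (0), 0 to 226 for the averaged donor comparison (0) and 0 to 2 for the interaction (1). At 7 to 22 counts of Npas2 in CKD recipients, counting error limits comparisons of single hearts.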
